A study of Homo sapiens with 24 samples.

Results

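The nuclear pore genes described here were 30 nucleoporin genes, taken by gene symbol from a list of nuclear pore components, out of 25702 gene identifiers in the RNA-seq count files. RNA-seq was performed on IMR90 cells, a line of human lung fibroblasts, in 4 groups of 6 biological replicates each. Every group carried a retroviral ER:HRAS(G12V) fusion, an oncogenic RAS that is held inactive until 4-hydroxytamoxifen (4OHT) is added, and all cells were between passage 23 and passage 28. Growing cells had an empty MSCV vector and no 4OHT, shHMGA1 cells had an MSCV miR30 hairpin against HMGA1 and no 4OHT, RIS cells (RAS-induced senescence) had the empty vector and 4OHT for 6 days, and RIS+shHMGA1 cells had the hairpin and 4OHT for 6 days. HMGA1 is a chromatin architectural protein needed for the heterochromatin foci of senescent cells, and the comparisons asked what 6 days of RAS and the loss of HMGA1 did to gene expression. A single hairpin in 1 cell line was used, so its effect on HMGA1 cannot be told apart from any effect on other transcripts.

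Nuclear pores are ring-shaped channels through the nuclear envelope that let small molecules pass and carry larger cargo with the help of transport receptors. The Y complex and the inner ring build the scaffold, the transmembrane nucleoporins fasten it to the membrane, nucleoporins with phenylalanine-glycine repeats fill the channel, and the basket and the cytoplasmic filaments project from its nuclear and cytoplasmic faces. Growing cells insert pores as the nucleus enlarges and rebuild them after each mitosis, whereas assembled scaffolds in non-dividing cells are very stable.

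Libraries held between 8698070 and 23103424 counts, with a median of 10604084. HMGA1 ranged from 639 to 861 CPM (read counts scaled to library size, so that libraries can be compared) in growing and from 641 to 786 in RIS, against 54.4 to 143 in shHMGA1 and 60.0 to 262 in RIS+shHMGA1, so the hairpin lowered its target in all 12 libraries that carried it. 2 libraries lay apart from their groups. The library labelled growing replicate 4 had a mean log2 CPM of 3.28 over a list of 24 cell division genes, where the other growing libraries had 5.85 to 6.22, and the library labelled RIS replicate 2 had 5.89, where the other RIS libraries had 3.27 to 3.70. Both were kept in their labelled groups. Counts of calls that rest on growing or RIS are given with all 24 libraries and without these 2, and levels are given over all 6 libraries of a group unless fewer are named. Without the 2, the medians of the 10 genes described in full moved by -19.3% (NUP37) to 9.43% (TPR) in growing and by -22.0% (TPR) to 7.94% (NUP37) in RIS. The 10 fibroblast markers were detected in every group, and their summed level had a median of 33411 CPM in growing and 5735 CPM in RIS+shHMGA1. Summed markers of other cell types stayed low, at 36.6 to 54.8 CPM for 8 epithelial, at most 9.56 for 5 endothelial and at most 1.38 for 6 immune genes.

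Of the 30 nucleoporin genes, 29 passed the filter on low counts. The exception was NUP210, a transmembrane nucleoporin with cell type-restricted expression, which had 0 to 11 counts per library. Per kilobase of canonical transcript, SEC13 had by far the highest mean level in growing, at 208 CPM per kilobase. SEC13 is also a coat protein of vesicles that leave the endoplasmic reticulum. The next were the Y complex subunit SEH1L with 26.2, the mRNA export factor RAE1 with 23.2 and the channel protein NUP62 with 21.7. Without growing replicate 4 their order turned, to 23.8 for NUP62, 23.3 for SEH1L and 20.4 for RAE1, and SEC13 was at 190. The lowest of the 29 were AHCTF1, which seeds pores on chromatin after mitosis, with 2.84, the transmembrane POM121 with 3.54 and the inner ring NUP155 with 4.41. POM121 has a near-identical copy, POM121C, and RANBP2 has several (the RGPD genes), so their counts are uncertain.

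RefSeq gave a promoter (250 bases before the start and 50 after it, GRCh38.p14) for 28 of the 30 genes, including all 10 that are described below as lower in RIS+shHMGA1. The windows were searched on both strands for TTTGAA, the core of the cell cycle genes homology region found in many mitotic genes. It was present in 6 of 28 nucleoporin promoters (21.4%) and in 9.83% of the 10412 promoters of tested genes. For comparison it was present in 8 of 21 promoters (38.1%) of the cell division list. Among the 10 genes called lower, 3 held it, and among the other 18, 3 held it. All 6 are shown as 30 bases of the gene strand with the match in capitals, the first 3 from genes called lower and the last 3 from genes that were not, because they show that the match was not restricted to genes that fell. They lie at chr1:53838310-53838339 (minus strand), chr7:135557740-135557769 (plus), chr6:17707146-17707175 (minus), chr2:183124396-183124425 (plus), chr12:102120163-102120192 (minus) and chr11:3797660-3797689 (minus).
NDC1: ggccttcctgccTTTGAActgcggtggcgg
NUP205: gccctcgccttaTTTGAAtgggaataatcc
NUP153: aagtgtcttTTCAAAgtctaatttacagcc
NUP35: gtttccgccattTTTGAAaattaattggga
NUP37: cgctgaatacagTTCAAAcctcgcgggagg
NUP98: cttcagttcggtTTCAAAagacgcgttgcc
In NDC1 the match began 31 bases before the start, in NUP205 165 bases before it and in NUP153 241 bases before it.

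Other words gave a mixed picture. CCAAT was found in 11 of 28 nucleoporin promoters (39.3%), close to the 36.4% of all tested promoters, against 17 of 21 (81.0%) in the cell division list. The 4 E2F words TTTCCCGC, TTTGGCGC, TTTCGCGC and TTTGCCGC were found in 1 nucleoporin promoter, that of NUP155 (3.57%), in 5.37% of all tested promoters and in 8 of 21 promoters of the cell division list (38.1%). The ETS word CCGGAAGT was found in 6 nucleoporin promoters (21.4%) and in 9.05% of all tested promoters. These are counts of letters in a window and do not show binding.

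To ask how nucleoporin transcripts respond to RAS when HMGA1 is reduced, RIS+shHMGA1 was compared with shHMGA1. Neither group holds a library that lay apart. The spread was estimated from all 24 libraries together, so the 2 that lay apart still enter the standard errors and calls. Genes were called where the false discovery rate (FDR) was under 0.01 and the log2 fold change was over 0.58 in size. Of the 29 genes, 10 were lower and 1 was higher. Over all 13356 genes tested, 39.1% were called, 19.5% lower and 19.6% higher, so the share of nucleoporin genes called (37.9%) was near that background, while the split was 10 to 1 where it was near even over all genes. The split was uneven over all genes with canonical transcripts of 5000 bases and over, with 28.7% lower and 10.7% higher. That class holds 15 of the 29 nucleoporin genes. The median log2 fold change was -0.51 over the nucleoporin genes and -0.02 over all genes. In bulk RNA, fewer cells of a type and less RNA per cell cannot be told apart, and a CPM value is a share of the library. Leaving out the 2 libraries that lay apart gave 11 genes lower and 1 higher, where 5959 of 13416 genes tested were called. Leaving out replicate 3 or replicate 6 of every group left 7 genes lower and 0 higher, where 22.7% and 30.8% of all genes were called. In a fit of replicates 1 to 4 alone, added after the data were seen, 0 were called, as were 0.0% of all genes, although the median log2 fold change of the nucleoporin genes was -0.53. When the 2 libraries that lay apart were also left out 12 were lower and 4 higher, where 47.7% of all genes were called.

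The counts by sub-complex that follow are to be read beside the shares over all genes, 19.5% lower and 19.6% higher. The transmembrane ring held the largest fall. NDC1, which anchors the pore in the membrane and takes part in its assembly, lies on chromosome 1 (54231151 to 54304136, hg19). Its median level was 51.4 CPM in growing (lowest to highest 16.7 to 58.2), 52.3 in shHMGA1 (41.9 to 60.5), 20.03 in RIS (16.7 to 43.99) and 18.6 in RIS+shHMGA1 (14.2 to 21.0). The 6 RIS+shHMGA1 libraries all lay far below the 6 shHMGA1 libraries. The log2 fold change between these groups was -1.50 ± 0.24 (standard error, FDR 0.000199). POM121 had -0.42 ± 0.19 and did not pass (FDR 0.0627).

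In the channel, NUP62, whose phenylalanine-glycine repeats line the transport path, had a median of 77.8 CPM in growing (36.3 to 92.0), 68.3 in shHMGA1 (62.7 to 81.3), 47.6 in RIS (40.7 to 81.9) and 33.3 in RIS+shHMGA1 (29.7 to 39.4). All 6 RIS+shHMGA1 libraries lay below all 6 shHMGA1 libraries, and the log2 fold change was -1.07 ± 0.18 (FDR 0.000233). Its 2 partners in the channel trimer had positive values that did not pass, 0.23 ± 0.13 for NUP58 and 0.29 ± 0.20 for NUP54. NUP98, which also acts in mRNA export, had -0.19 ± 0.14. NUP62 (chromosome 19, 50410082 to 50433021) shares exonic bases with IL4I1 on its own strand and with ATF5 on the other, and how such reads were assigned is not given in the sources used here.

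In the inner ring, which holds the scaffold against the membrane, 2 of 5 genes were lower. NUP155 (chromosome 5, 37288239 to 37371208) had a median of 38.3 CPM in growing (18.0 to 44.7), 39.6 in shHMGA1 (30.02 to 43.1), 24.4 in RIS (22.6 to 36.5) and 19.4 in RIS+shHMGA1 (16.8 to 20.9). Its shHMGA1 and RIS+shHMGA1 libraries did not overlap, with a log2 fold change of -0.999 ± 0.17 (FDR 0.00022). NUP205 fell by 0.80 ± 0.16 on the log2 scale (FDR 0.000399), while its paralogue NUP188 had -0.51 ± 0.18 (FDR 0.0157). NUP93, the linker of the ring, had a precise but smaller difference of -0.37 ± 0.09 (FDR 0.00201), under the fold limit. NUP35 had 0.34 ± 0.18 and did not pass.

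In the nuclear basket, 2 of 3 genes were lower. All 3 have canonical transcripts of 5000 bases and over, a class in which 28.7% of all genes were lower. With the trend with transcript length removed, as described below, 1 of the 3 was called. TPR, the coiled-coil protein that forms the basket filaments and keeps heterochromatin away from the pore, lies on chromosome 1 (186280784 to 186344825). It had a median of 98.3 CPM in growing (27.5 to 120), 78.1 in shHMGA1 (65.1 to 94.1), 53.4 in RIS (38.3 to 108) and 36.4 in RIS+shHMGA1 (33.96 to 59.5). The groups with the hairpin did not overlap, although RIS+shHMGA1 replicate 5, at 59.5 CPM, lay far above the other 5 libraries of its group (33.96 to 38.6). The log2 fold change was -0.98 ± 0.28 (FDR 0.00543). TPR shares exonic bases with PRG4 on the other strand. NUP153, which docks transport receptors at the basket (chromosome 6, 17615266 to 17707156), had a median of 77.1 CPM in growing (32.7 to 103), 62.2 in shHMGA1 (51.0 to 76.8), 51.7 in RIS (42.8 to 78.7) and 34.6 in RIS+shHMGA1 (29.97 to 50.1). Its hairpin groups were separated narrowly, and the log2 fold change was -0.76 ± 0.21 (FDR 0.00366). NUP50 had -0.53 ± 0.12 (FDR 0.00142), under the fold limit.

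In the Y complex, the outer scaffold, 3 of 9 genes were lower. NUP85 (chromosome 17, 73201754 to 73231853) had a median of 39.0 CPM in growing (25.98 to 49.8), 45.4 in shHMGA1 (43.3 to 56.8), 26.05 in RIS (23.1 to 33.5) and 27.4 in RIS+shHMGA1 (23.7 to 30.1). The hairpin groups were well separated, and the log2 fold change was -0.80 ± 0.12 (FDR 0.000188). NUP133 and NUP160 both fell by 0.67 on the log2 scale (FDR 0.00246 and 0.000229). NUP107 had -0.57 ± 0.14 (FDR 0.00176), just short of the fold limit. The complex also held genes with positive values that did not pass, among them SEH1L with 0.56 ± 0.18 (FDR 0.0117) and SEC13 with 0.39 ± 0.15 (FDR 0.0314).

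NUP37, a peripheral Y complex subunit (chromosome 12, 102466881 to 102513898), had the largest positive value, 0.64 ± 0.27, but did not pass (FDR 0.0416). Its median was 32.6 CPM in growing (17.4 to 53.9), 31.1 in shHMGA1 (27.9 to 46.3), 31.9 in RIS (16.7 to 36.7) and 58.2 in RIS+shHMGA1 (28.8 to 70.2). The RIS+shHMGA1 group was split, with replicates 5 and 6 at 30.9 and 28.8 CPM, inside the shHMGA1 range, and the other 4 at 56.1 to 70.2.

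On the cytoplasmic side, where exported mRNA is released and remodelled, 1 of 6 genes was lower and 1 higher. AAAS (chromosome 12, 53701240 to 53718648), which encodes aladin and is mutated in triple-A syndrome, had a median of 33.6 CPM in growing (19.7 to 38.3), 30.9 in shHMGA1 (26.02 to 34.2), 22.1 in RIS (18.7 to 33.4) and 17.4 in RIS+shHMGA1 (14.9 to 22.4). The hairpin groups did not overlap, and the log2 fold change was -0.80 ± 0.15 (FDR 0.000356). RAE1, which binds NUP98 and works in mRNA export and at the spindle (chromosome 20, 55926279 to 55954267), had a median of 50.2 CPM in growing (37.9 to 89.0), 62.6 in shHMGA1 (58.5 to 72.4), 73.6 in RIS (39.9 to 79.4) and 102 in RIS+shHMGA1 (81.7 to 109). It was the only one of the 29 genes called higher here, with all 6 RIS+shHMGA1 libraries above all 6 shHMGA1 libraries and a log2 fold change of 0.61 ± 0.17 (FDR 0.00506).

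NUP42, which helps the helicase that strips export factors from mRNA (chromosome 7, 23221460 to 23240630), had a median of 17.5 CPM in growing (12.2 to 31.9), 22.03 in shHMGA1 (20.2 to 26.5), 23.9 in RIS (14.1 to 27.8) and 33.8 in RIS+shHMGA1 (28.1 to 36.998). The hairpin groups did not overlap, but the log2 fold change of 0.56 ± 0.19 did not pass (FDR 0.0134). NUP214, which receives export complexes, had -0.69 ± 0.22 and missed the threshold narrowly (FDR 0.0112), and RANBP2, the main filament protein, had -0.56 ± 0.27 (FDR 0.0711). NUP88, the partner of NUP214, had 0.08 ± 0.13.

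**Figure D1:**
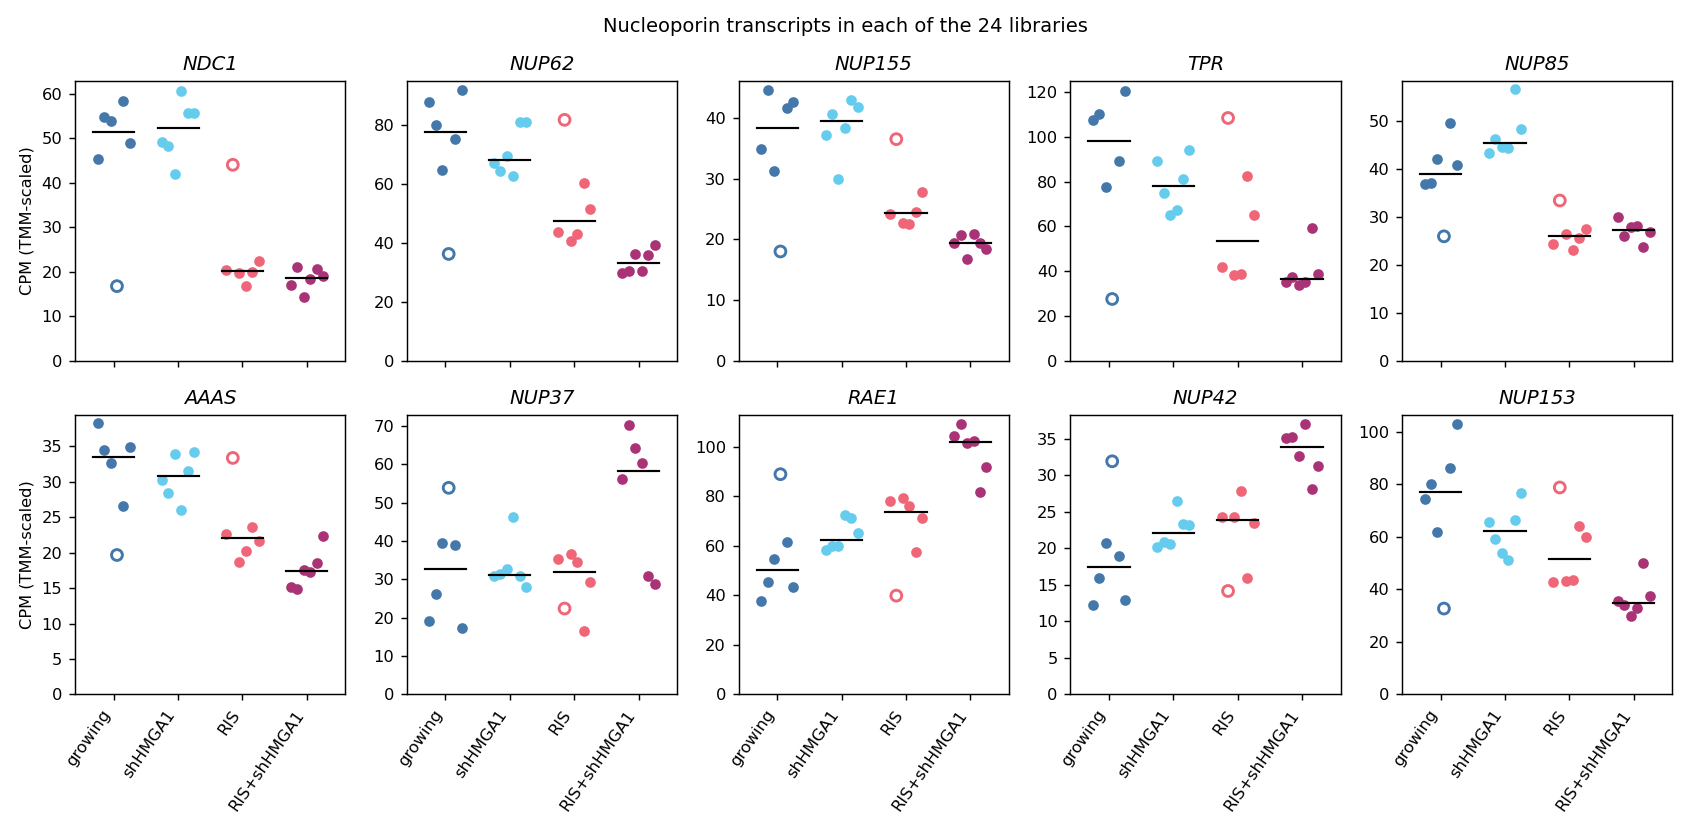
Level of 10 nucleoporin transcripts (vertical axis, TMM-scaled CPM from 0) in each of the 24 libraries, by group (horizontal axis). Each point is 1 library, black bars are group medians, and open circles mark growing replicate 4 and RIS replicate 2. NDC1 has medians of 51.4 and 52.3 CPM in the untreated groups against 20.03 and 18.6 in the 4OHT groups, and its open circles lie with the opposite condition.

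Next, RIS was compared with growing, the same question in vector cells. With all 24 libraries, edgeR called 0 of 29 nucleoporin genes and 0.0% of the 13356 genes tested. At an unadjusted p under 0.05, 9 nucleoporin genes passed, each with a negative value, and 33.0% of all genes did. DESeq2 called 1, lower, where it called 5.72% of all genes. Leaving out growing replicate 4 alone or RIS replicate 2 alone gave 3 genes lower in either case, where 25.4% and 19.2% of all genes were called. The 2 libraries that lay apart were in this contrast. In growing replicate 4, NDC1 was at 16.7 CPM where the other 5 growing libraries had 45.4 to 58.2, and in RIS replicate 2 it was at 43.99 CPM where the other 5 RIS libraries had 16.7 to 22.4.

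Without these 2 libraries, 10 of 29 nucleoporin genes were lower in RIS and 0 were higher, where 20.5% of 13416 genes tested were lower and 19.2% higher. At an unadjusted p under 0.05, 17 genes had negative and 4 positive values, where 65.3% of all genes passed. The 10 were NDC1 (-1.40 ± 0.12), TPR (-0.92 ± 0.19), NUP62 (-0.74 ± 0.12), NUP133 (-0.71 ± 0.12), NUP85 (-0.70 ± 0.10), NUP155 (-0.68 ± 0.11), NUP153 (-0.67 ± 0.15), AAAS (-0.65 ± 0.12), NUP107 (-0.63 ± 0.14) and NUP214 (-0.60 ± 0.16). NUP205 (-0.56 ± 0.12) and RAE1 (0.57 ± 0.12) had an FDR of 0.000283 and 0.00032 but lay inside the fold limit. Among these 10, the libraries of NDC1, NUP62, NUP85, NUP155, NUP133, NUP107 and AAAS did not overlap between the groups, while those of TPR, NUP153 and NUP214 did. The libraries of NUP205 and NUP93, which were not called, did not overlap either. How many of all tested genes separated in this way, here or in the other contrasts, was not counted.

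The responses in vector and hairpin cells were set side by side, since they share no library. In the fit without the 2 libraries, 11 genes were called lower in hairpin cells, NUP214 being added to the 10 above, and 10 in vector cells. Of all 13416 genes tested, 2936 were lower in hairpin cells and 2752 in vector cells. 9 nucleoporin genes were in both lists, 81.8% of the first and 90% of the second. The overlap was not counted over all genes, so it cannot be set against a background. NUP160 and NUP205 passed in hairpin cells alone and NUP107 in vector cells alone, and the interaction below is the test of such differences. Over the 29 genes and without the 2 libraries, the log2 fold changes had a Pearson r of 0.959 and a Spearman rho of 0.948, and 28 had the same sign (AHCTF1 was the exception). With all libraries r was 0.884 and rho 0.895, and 22 of 29 had the same sign. Over all genes tested r was 0.965 without the 2 libraries and 0.908 with them. The difference between the responses, tested as the interaction of hairpin and RAS, was called in 0 of 29 nucleoporin genes by edgeR, with all libraries or without the 2, and in 0 by DESeq2. Over all genes it was called in 0.0% and 0.00745%. At an unadjusted p under 0.05 it passed in 4 with all libraries (NUP62, NUP155, NUP160 and NUP37), where 10.3% of all genes did, and in 2 without, where 3.82% did (NUP160 with -0.38 ± 0.16 and NUP155 with -0.32 ± 0.15).

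**Figure D2:**
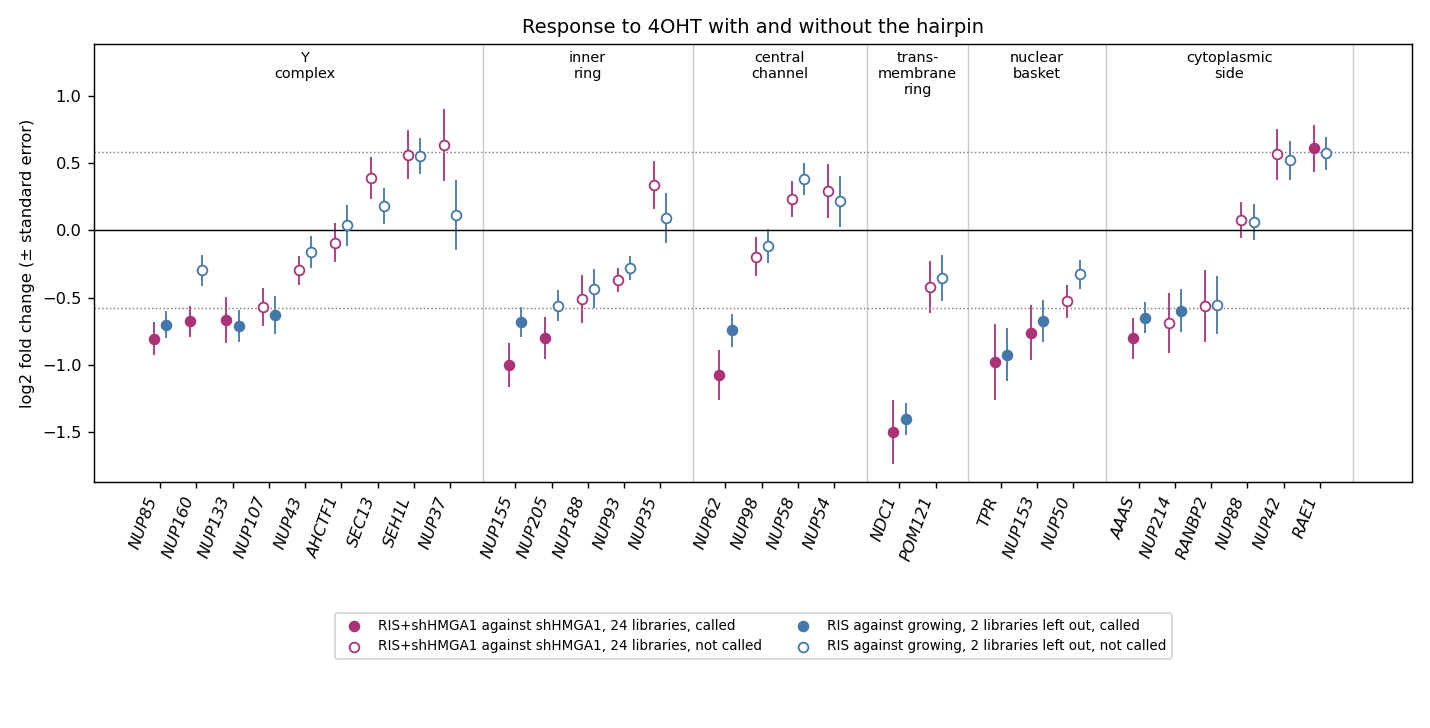
Log2 fold change (vertical axis, bars are standard errors) of the 29 tested nucleoporin genes, grouped by sub-complex, for RIS+shHMGA1 against shHMGA1 in the fit of 24 libraries and for RIS against growing without the 2 libraries that lay apart. Filled points were called, and dotted lines mark the fold limit of 0.58. The bars come from fits of different libraries, so their sizes cannot be compared between the contrasts. NDC1 is lowest in both (-1.50 and -1.40), and each sub-complex with more than 3 genes holds values on both sides of 0.

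The hairpin in untreated cells asked whether nucleoporin transcripts respond to HMGA1 without RAS. For shHMGA1 against growing, edgeR called 0 of 29 with all libraries and 0 without growing replicate 4 and RIS replicate 2, where 0.27% and 2.59% of all genes were called. DESeq2 called 0. At an unadjusted p under 0.05, 5 nucleoporin genes passed with all libraries and 12 without the 2, where 13.2% and 38.9% of all genes did. At an FDR under 0.05 with no fold limit, 0 passed with all libraries and 5 without the 2, where 0.779% and 19.6% of all genes did. These were POM121 (-0.52 ± 0.16), NUP188 (-0.42 ± 0.14) and NUP98 (-0.34 ± 0.12), which were lower, and RAE1 (0.41 ± 0.12) and NUP42 (0.48 ± 0.14), which were higher.

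In 4OHT-treated cells, RIS+shHMGA1 against RIS gave 0 calls among 29 with all libraries (2.55% of all genes), with 21 passing an unadjusted p under 0.05 where 49.8% of all genes did, while DESeq2 called 2 lower and 2 higher, where it called 12.2% of all genes. Leaving out growing replicate 4 alone, which changes the shared estimate of the spread and not the levels compared, gave 4 lower and 3 higher, where 19.0% of all genes were called. Without the 2 libraries 1 was called, where 12.5% of all genes were. It was NUP35, an inner ring subunit that binds membranes, with a median of 16.7 CPM in the 5 RIS libraries left (12.9 to 20.9) and 27.9 in RIS+shHMGA1 (22.8 to 31.4). Over all 6 RIS libraries its median was 16.3 CPM (12.6 to 20.9). The groups did not overlap, and the log2 fold change was 0.67 ± 0.18 (FDR 0.0064). With the trend with transcript length removed, as described below, NUP35 had 0.44 ± 0.16 (FDR 0.0387) and 0 of 29 were called, where 8.02% of all genes were. At an FDR under 0.05 with no fold limit, 11 genes were lower and 6 higher in either fit, where 35.6% and 39.1% of all genes passed. The 6 higher were RAE1, NUP35, NUP42, SEC13, NUP37 and NUP88. Without the 2 libraries, RAE1 had 0.44 ± 0.12, NUP42 0.52 ± 0.14 and SEC13 0.44 ± 0.13, and NUP62 (-0.51 ± 0.12) and POM121 (-0.59 ± 0.17) were among those lower.

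The hairpin comparisons in growing and in 4OHT-treated cells share no library. Without the 2 libraries, their log2 fold changes over the 29 genes had a Pearson r of 0.911 and a Spearman rho of 0.952, against 0.791 and 0.812 over all genes, and 28 of 29 had the same sign (NUP160 was the exception). With all libraries r was 0.741 over the 29 genes and 0.288 over all genes, and 22 of 29 had the same sign. Both comparisons share the relation to transcript length given below, so the points are not independent. They also share a relation to GC content, the percentage of G and C bases in the transcript. Without the 2 libraries, its Spearman rho over 12636 genes with a length was -0.325 in growing and -0.283 in 4OHT-treated cells.

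**Figure D3:**
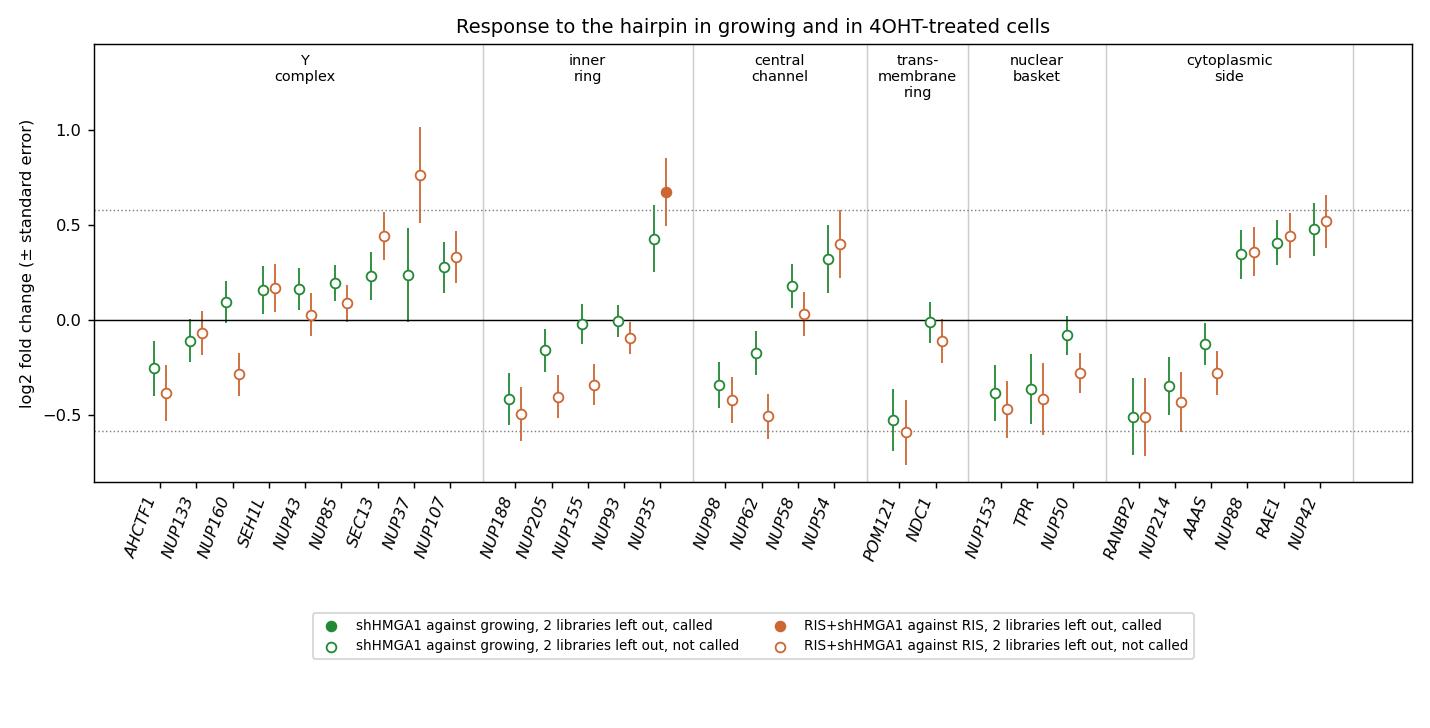
Log2 fold change (vertical axis, bars are standard errors) of the 29 tested nucleoporin genes by sub-complex for the hairpin in growing cells and in 4OHT-treated cells, both without the 2 libraries that lay apart. Filled points were called, and dotted lines mark the fold limit of 0.58. NUP35 in 4OHT-treated cells (0.67) is the single filled point, and most pairs lie on the same side of 0.

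The contrast that joins RAS and the hairpin, RIS+shHMGA1 against growing, held the most calls. With all 24 libraries 12 nucleoporin genes were lower and 3 higher, where 45.9% of all genes were called (23.9% lower and 22.0% higher), and without the 2 libraries 15 were lower and 7 higher, where 56.9% were (28.5% lower and 28.3% higher). Leaving out replicate 1 of every group gave 7 lower and 1 higher, where 22.9% of all genes were called. The 3 higher were RAE1 (0.83 ± 0.18), NUP42 (0.83 ± 0.19) and NUP35 (0.71 ± 0.18). The 12 lower included RANBP2 (-0.90 ± 0.27), POM121 (-0.82 ± 0.19), NUP188 (-0.80 ± 0.18) and NUP214 (-0.87 ± 0.22), none of which was called in RIS+shHMGA1 against shHMGA1. All 3 basket genes were lower without the 2 libraries. This contrast shares its libraries with those above and is no separate evidence.

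Nucleoporin genes range from 1359 bases of canonical transcript (SEC13) to 11708 (RANBP2), and their values moved with that length. For RIS+shHMGA1 against shHMGA1, all 15 tested genes of 5000 bases and over had a negative log2 fold change, with a median of -0.57, while 7 of 9 under 2500 bases had a positive one, with a median of 0.39. The same order was present over all genes, with medians of -0.31 and 0.33 in these classes. Of the 15 longer nucleoporin genes, 6 were called lower and 0 higher, where 28.7% and 10.7% of all genes of that length were. Of the 9 under 2500 bases, 2 were lower and 1 higher, where 10.7% and 30.5% of all such genes were. Spearman's rho between fold change and length was -0.433 over the 29 genes and -0.329 over 12582 genes with a length. For RIS+shHMGA1 against RIS it was -0.693 and -0.470, the largest in size of the 5 contrasts between groups.

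Short members set apart from that order were AAAS (1815 bases) and NUP85 (2133 bases), the 2 genes under 2500 bases that were called lower. When the trend with length was taken out of each library, a step added after the data were seen, 6 of the 10 genes were still called lower in RIS+shHMGA1 against shHMGA1 and 0 were higher. That was 20.7% of the 29 genes, near the 18.3% of all genes that were lower. The 6 were NDC1 (-1.32 ± 0.20), AAAS (-1.0005 ± 0.20), NUP62 (-0.99 ± 0.17), NUP85 (-0.92 ± 0.14), NUP155 (-0.65 ± 0.10) and TPR (-0.61 ± 0.18). RAE1 then had 0.54 ± 0.15 (FDR 0.00411), inside the fold limit. For RIS against growing without the 2 libraries, 5 of 10 were still called, namely NDC1, AAAS, NUP85, NUP62 and TPR. These were 17.2% of the 29 genes, where 19.0% of all genes were lower. After the step, the relation of fold change to GC content was larger in size. For RIS+shHMGA1 against shHMGA1, rho over all genes was -0.131 before it and -0.250 after it. Over the 29 genes it was -0.178 and -0.263. For RIS+shHMGA1 against RIS, rho over all genes was -0.279 before the step and -0.488 after it. GC content was 57.4% in AAAS, 56.6% in NUP62, 51.5% in NUP85, 41.6% in NUP155, 39.9% in TPR and 38.8% in NDC1. The part of GC content was not tested.

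Many nucleoporin transcripts also differed between replicates of the 4OHT groups, a split chosen after the values were seen. In RIS, replicates 5 and 6 both lay above replicates 1, 3 and 4 for 12 of 15 genes of 5000 bases and over, and for 1 of 14 shorter genes. They both lay below them for 0 of 15 and 6 of 14, the 6 being RAE1, NUP42, NUP35, SEC13, NUP37 and NUP54. In RIS+shHMGA1, replicates 5 and 6 both lay above replicates 1 to 4 for 7 of 15 and 1 of 14. Both lay below them for 0 of 15 and 7 of 14, the same 6 genes and SEH1L. TPR was at 38.3 to 41.7 CPM in RIS replicates 1, 3 and 4 but at 82.7 in replicate 5 and 65.2 in replicate 6. RANBP2 was at 37.3 to 41.1 CPM in the same 3 libraries and at 82.2 and 62.8 in the other 2. In NUP155 the gap was small, with 22.6 to 24.3 CPM against 24.5 and 27.8, and NUP107, NUP160 and NUP93 did not show it. In RIS+shHMGA1, replicate 5 lay above replicates 1 to 4 for 10 of 15 long genes, and for TPR replicate 6 was at 38.6 CPM. What produced the relation to length was not tested.

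The machinery that works with the pore was described from lists of transport genes. Over all 13356 genes tested in RIS+shHMGA1 against shHMGA1, 39.1% were called, 19.5% lower and 19.6% higher. The counts below are to be read beside these shares. For RIS+shHMGA1 against shHMGA1, 3 of 24 importins and exportins were lower and 1 higher, with a median log2 fold change of -0.11. Those lower were KPNA2 (-0.85), an importin alpha of dividing cells, IPO9 (-0.79) and CSE1L (-0.76), the exportin that returns importin alpha, and XPOT (0.77), which exports tRNA, was higher. Of 7 genes of the Ran cycle, which gives transport its direction, RANGAP1 (-1.35) was lower and RAN (0.80) and NUTF2 (0.86), which carries Ran into the nucleus, were higher. Of 16 tested mRNA export genes 1 was called, THOC7 (1.03). Of 9 pore partners outside the member list, SENP1 (-0.91) and LEMD2 (-0.84) were lower and TMEM33 (0.92) was higher.

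Cell division genes fell further than the nucleoporin genes. All 24 of the cell division list were lower in RIS+shHMGA1 against shHMGA1, with a median log2 fold change of -2.52, against -0.51 for the nucleoporin genes. Of the 29 nucleoporin genes, 20 had a negative and 9 a positive value in that contrast. In RIS against growing 0 of 24 were called with all libraries, with a median of -1.69, and 24 without the 2, with a median of -2.67. The 2 libraries were set apart by their mean over this same list, so that gain is no separate result. The mean log2 CPM of the 29 nucleoporin genes was 5.26 to 5.42 in RIS+shHMGA1 and 5.52 to 5.80 in shHMGA1, and its groups did not overlap. Of the 29, 15 have transcripts of 5000 bases and over, where the median log2 fold change of all genes was -0.31. Such a mean was not taken over other genes of like length, so this separation cannot be set against a background. Whether the nucleoporin genes that were lower fell as part of the fall in cell division was not tested.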

How the data were processed

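RNA-seq counts of 24 libraries were used. The authors mapped reads to hg19 with STAR (version 2.5.0b), trimmed and filtered them with Cutadapt (version 1.10.0, per the labels) and counted them per gene with Rsubread. The deposited values are raw counts per Entrez identifier, and the annotation, the Rsubread version and the strand setting are not given in the sources used here. Symbols were matched for 23696 of 25702 identifiers.

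Counts were fitted with edgeR (version 4.0.16, R 4.3.3) as 4 group means with TMM factors, filterByExpr and the quasi-likelihood test, with Benjamini-Hochberg adjustment over all genes tested. A call needed an FDR under 0.01 together with a log2 fold change over 0.58 in size. The fit was tested on simulated data. CPM values are TMM-scaled. Positions and canonical transcript lengths came from GENCODE (GRCh37), and lengths existed for 94.2% of tested genes. The length trend was a lowess curve per library (span 0.3) used as an offset. Genes described in full were, for RIS+shHMGA1 against shHMGA1, up to 6 called in each direction, or the 3 of largest value where fewer than 3 were called, together with members called in a hairpin contrast with all 24 libraries (there were 0) and the basket genes TPR and NUP153. NUP35 was added after its values were seen. The members, lists, motifs and the libraries set aside were chosen with earlier results of these data known. Replicates are biological per the labels.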

Additional observations from a re-analysis of the deposited data

Results flagged for a closer look

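Dixon's test was applied to the 6 libraries of each group for the 10 fully described genes and the total count, 44 tests in all, of which chance would pass about 2.2 at the 95% level. 7 passed. NDC1 in growing replicate 4 was lowest, with a gap of 0.7997 of the group's range, and TPR in the same library was lowest with 0.702. NDC1 in RIS replicate 2 was highest with 0.699. These 2 libraries are the ones that lay apart in the cell division list. TPR in RIS+shHMGA1 replicate 5 was highest with 0.772, and NUP37 in shHMGA1 replicate 4 was highest with 0.690. The total count was highest in growing replicate 1 with 0.796 and in RIS replicate 3 with 0.684, and CPM values are scaled for that.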

How the results depend on the processing

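Counts of nucleoporin genes called moved with several settings. For RIS against growing, 0 genes became 10 without the 2 libraries, 3 without growing replicate 4, 3 without RIS replicate 2, 1 with DESeq2, 3 at an FDR under 0.05 with no fold limit, 15 in replicates 1 to 4 without the 2 libraries, and 5 without the 2 libraries and the length trend. Beside the 15, 6444 of 13472 genes tested were called, and beside the last 5, 4716 of 12636 were. For RIS+shHMGA1 against RIS, 0 became 1 without the 2 libraries, 1 in the fit of that contrast's own libraries, 7 without growing replicate 4, 4 with DESeq2, 17 at an FDR under 0.05 with no fold limit, and 1 in replicates 1 to 4 without the 2 libraries, and was 0 without the length trend, with or without the 2 libraries. Beside the 17, 35.6% of all genes passed. Of all genes, 327 of 12658 were called in the contrast's own libraries and 1404 of 13472 in replicates 1 to 4 without the 2 libraries. For RIS+shHMGA1 against shHMGA1, 11 became 21 at an FDR under 0.05 with no fold limit, 0 in replicates 1 to 4, and 6 without the length trend, with or without the 2 libraries. Beside the 6, 4622 of 12582 genes were called with the 2 libraries and 5119 of 12636 without them. For RIS+shHMGA1 against growing, 15 became 26 at an FDR under 0.05 with no fold limit, 0 in replicates 1 to 4, 7 without the length trend, and 9 when the 2 libraries were also left out. Beside the 0, 7 and 9, the genes called were 5 of 13375, 5098 of 12582 and 6420 of 12636. The counts of 3, 21 and 26 at an FDR under 0.05 have no share over all genes here, so they cannot be set against a background. Leaving out each replicate number in turn, or 1 of the 2 libraries, gave 7 to 14 for RIS+shHMGA1 against shHMGA1, 8 to 22 for RIS+shHMGA1 against growing, 0 to 3 for RIS against growing, 0 to 7 for RIS+shHMGA1 against RIS and 0 throughout for the other 2.

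With the replicate number as a block, RIS+shHMGA1 against RIS gave 3 calls in place of 0 and every other count stayed within 1.5 times, and without the 2 libraries the block gave 10 for RIS against growing and 1 for RIS+shHMGA1 against RIS. Same-numbered libraries deviated together in part, with a mean correlation of 0.175 against -0.050 for unequal numbers, and 10 of 24 libraries correlated best with their own number. The numbers were not taken to pair the samples because the labels tie them to no shared batch and 24 of 36 same-numbered pairs, not all, had a correlation over 0.1. The other 95 counts stayed within 1.5 times. For the genes called, 459 fold changes under an alternative stayed past the threshold, 87 kept their direction but not the call, and 0 reversed. The cause of these moves was not tested. With a median of 10604084 counts per library, NUP210 (0 to 11 counts) was too low to be tested.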
